A study of Homo sapiens with 4 samples.

Results

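MALAT1 (ENSG00000251562) and NEAT1 (ENSG00000245532), a pair of long noncoding RNAs kept in the nucleus, were followed through 4 single-cell libraries of BEAS-2B cells. They were chosen by gene symbol and are 2 of the 36601 genes listed in the files. BEAS-2B cells are human epithelial cells of the bronchus that were made to divide without limit. Cells in T25 culture bottles received 10 mGy, 100 mGy or 1 Gy of Cs-137 gamma rays at a dose rate of 100 mGy per min and were cultured for 30 min before sequencing, and the control received no radiation. Each dose has 1 library of 1 cell line, so no test between doses was made, and an effect of dose cannot be told apart from a difference between libraries. The libraries were made with a kit that captures the 3′ ends of polyadenylated RNA, and the deposited values are counts of unique molecular identifiers (UMIs), each of which stands for 1 captured RNA molecule.

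MALAT1 is an abundant RNA that gathers in nuclear speckles, bodies rich in splicing factors. NEAT1 is the RNA on which paraspeckles, another kind of nuclear body, are built, and only its long form can build them. Most messenger RNAs leave the nucleus for translation, so in single-cell data these RNAs are often read, beside the RNAs of mitochondria, to judge whether a barcode holds a whole cell, a nucleus or leaked cytoplasm. Mitochondrially encoded RNAs (genes named MT-) lie outside the nucleus.

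Both genes lie on the plus strand of chromosome 11, close to each other. In GENCODE 29, on GRCh38, NEAT1 spans chr11:65422774-65445540 and MALAT1 chr11:65497688-65506516, and both are annotated as lincRNA. The exons add up to 8829 bases for MALAT1 and 22767 bases for NEAT1 when overlaps are merged. MALAT1 has 17 annotated transcripts, of which MALAT1-202 is the longest with 8708 bases. NEAT1 has 8, and the longest, NEAT1-202, has 22743 bases. Counts are given per gene, so the short and the long form of NEAT1 cannot be told apart in these data, nor, without stated use of strand, MALAT1 and the RNA antisense to it.

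The ends of these RNAs are printed because the kit captures poly(A), and the long forms of both are known to end without a poly(A) tail. They end instead in a fold in which 2 T-rich stretches pair with an A-rich stretch at the very end. In the transcript sequences of GENCODE 29 these stretches were searched as TTTCTTTT, TTTTGCTTTT and AAAAGCAAAA, in that order, with at most 150 bases between neighbours and on the strand of the transcript only. The letters were taken from what is known of these genes, so a match in them is no finding. Each stretch is in capitals:
MALAT1-202, bases 8270 to 8355, chr11:65506031-65506116, plus strand: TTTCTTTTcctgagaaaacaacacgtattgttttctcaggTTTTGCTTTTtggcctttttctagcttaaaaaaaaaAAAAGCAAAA
NEAT1-202, bases 22656 to 22743, chr11:65445453-65445540, plus strand: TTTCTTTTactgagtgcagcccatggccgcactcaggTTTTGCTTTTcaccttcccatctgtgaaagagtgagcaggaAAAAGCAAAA
The windows were 86 bases long in MALAT1 and 88 bases long in NEAT1. Of 58676 annotated genes, 2 held the 3 stretches, MALAT1 and NEAT1 themselves, which is 0.00341% of the genes.

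Runs of A inside a transcript are shown for the same reason, since they can be captured like a tail. MALAT1-202 held 1 run of at least 11 A, of 13 bases, at bases 8337 to 8349, whose last 4 bases are the first of the A-rich stretch printed above and whose others are the lower-case letters before it. NEAT1-202 held 4 such runs, of 11, 14, 14 and 22 bases. The short transcript NEAT1-208, of 2994 bases, ends instead a few bases after AATAAA, the signal for adding a poly(A) tail. The longest run and that end are given with the run and the signal in capitals:
NEAT1-202, bases 18031 to 18082, chr11:65440828-65440879, plus strand: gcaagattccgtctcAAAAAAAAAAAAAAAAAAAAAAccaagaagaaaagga
NEAT1-208, bases 2955 to 2994, chr11:65426474-65426513, plus strand: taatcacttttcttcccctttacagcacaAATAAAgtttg
A run of at least 13 A was found in 23.9% of the 8499 genes that had a mean of at least 10 counts per 1000000 UMIs (CPM) and a sequence, and a run of at least 20 A in 6.74%. Such runs are therefore common among the genes measured, and from which of these places the counted molecules were captured cannot be read from counts per gene.

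The libraries held 11111 barcodes in the control, 21514 after 10 mGy, 19950 after 100 mGy and 15510 after 1 Gy, with median UMI counts from 12417 to 19771. Between 19.6% and 41.4% of the barcodes of a library had a total that stayed below the library median when multiplied by 3. These low-UMI barcodes had median totals from 851 to 1764, against 15108 to 21752 for the others, so the results are given with and without them. Between 76 and 134 barcode sequences were shared by each pair of libraries. Of 16 markers of the line, 10 had a mean of at least 10 CPM, with 582 CPM for KRT7, 255 CPM for KRT8, 254 CPM for KRT18 and 2482 CPM for VIM, a filament protein of mesenchymal cells. The epithelial genes EPCAM, at 1.03 CPM, CDH1, at 0.035 CPM, and KRT19, at 1.96 CPM, were near 0, as were the basal cell genes KRT5, KRT14 and TP63, each below those. S100A6 and LGALS1, of the same list, were 2.24-fold and 1.97-fold of the control after 10 mGy. Of the 10 markers, 3 were over 1.2-fold higher there and 4 over 1.2-fold lower, beside 16.0% and 54.4% of all genes. Summed markers of blood and endothelium stayed between 7.81 and 11.4 CPM and those of differentiated airway cells stayed between 0.814 and 1.42 CPM, and those of fibroblasts came to 33.5 CPM in the control and 29.9 CPM after 100 mGy, with SCGB3A1 and CD3E at 0.

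MALAT1 was the gene with the second highest mean CPM of all, and NEAT1 held rank 23. MALAT1 took 12576 CPM in the control, 7801 CPM after 10 mGy, 7401 CPM after 100 mGy and 11949 CPM after 1 Gy. Its rank within a library was 2 in the control and after 1 Gy, and 3 after 10 mGy and 100 mGy. NEAT1 took 3866 CPM in the control, 2958 CPM after 10 mGy, 2163 CPM after 100 mGy and 4483 CPM after 1 Gy. Its rank moved more, from 14 in the control to 43 after 10 mGy, 77 after 100 mGy and 11 after 1 Gy. For both genes the control and 1 Gy libraries were high, and the 10 mGy and 100 mGy libraries low. The exact 95% Poisson intervals cover counting error only and were narrow, as in the control, where they ran from 12561 to 12591 CPM for MALAT1 and from 3858 to 3875 CPM for NEAT1.

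For each barcode, the UMIs of a gene were scaled to a total of 10000, and this share was averaged over barcodes. The mean share of MALAT1 was 115.8 in the control, 66.7 after 10 mGy, 70.4 after 100 mGy and 108.6 after 1 Gy. The median barcode had 109.7, 59.1, 62.0 and 100.5, in the same order. For NEAT1 the mean share was 36.6 in the control, 22.9 after 10 mGy, 18.9 after 100 mGy and 39.9 after 1 Gy. Barcodes within a library covered a wide range. In the control, the middle 90% of barcodes ran from 43.3 to 207.9 for MALAT1 and from 9.08 to 73.0 for NEAT1, and after 10 mGy from 23.4 to 133.6 and from 0 to 52.6, so that the shares of single barcodes overlapped between these libraries. Per kb of exon, the mean share of MALAT1 lay between 7.56 and 13.1 and that of NEAT1 between 0.830 and 1.75, with the limit that a 3′ kit does not count in proportion to length.

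**Figure D1:**
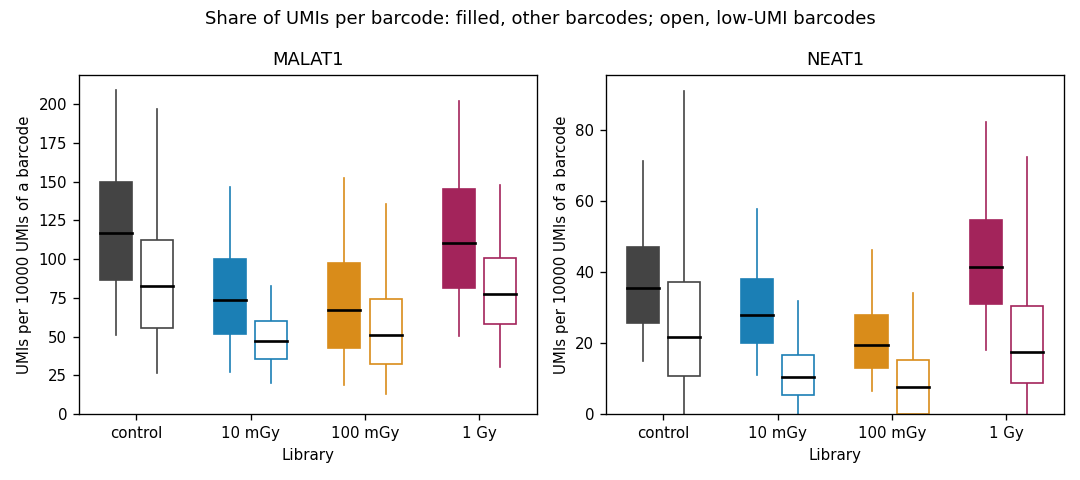
Share of MALAT1 (left) and NEAT1 (right) in UMIs per 10000 UMIs of a barcode, for the 4 libraries; boxes hold the middle 50% of barcodes, the black line is the median and the thin line runs from the 5th to the 95th percentile. Filled boxes are barcodes without the low-UMI ones and open boxes the low-UMI barcodes; the median of the open box lies below that of the filled box in every library for both genes.

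Against the control, the mean share of MALAT1 was 0.577-fold after 10 mGy, 0.608-fold after 100 mGy and 0.938-fold after 1 Gy. That of NEAT1 was 0.626-fold, 0.516-fold and 1.09-fold. At 10 mGy both genes were over 1.2-fold lower than the control, as were 54.4% of the 8507 genes with a mean of at least 10 CPM, while 16.0% were over 1.2-fold higher. At 100 mGy both were again lower, as were 58.9% of the genes, with 13.8% higher. At 1 Gy neither passed 1.2-fold, which 1.54% of the genes did upwards and 1.28% downwards. As shares of UMIs, most genes thus lay on the same side as MALAT1 and NEAT1 at the low doses. With the pooled counts scaled by median ratios the split turned, with 3060 genes higher and 1799 lower after 10 mGy and 3339 higher and 1797 lower after 100 mGy. That scaling was set on all genes with a count in every library, also those under 10 CPM, so it cannot show whether all genes shifted. The counts of lists given further on are shares of UMIs as well. The median ratio over all genes was 0.800 after 10 mGy, 0.769 after 100 mGy and 1.00 after 1 Gy.

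Relative to that median, MALAT1 was 0.721-fold after 10 mGy, 0.791-fold after 100 mGy and 0.935-fold after 1 Gy. NEAT1 was 0.782-fold, 0.671-fold and 1.09-fold. At 10 mGy, 13.8% of the genes had a lower ratio than MALAT1 and 21.0% a lower ratio than NEAT1. At 100 mGy these shares were 23.3% and 9.94%, so NEAT1 lay closer to the low end there and MALAT1 less close. At 1 Gy the genes lay on either side of the median, with 19.3% of all genes below MALAT1 and 84.9% below NEAT1.

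Without the low-UMI barcodes the ratios of MALAT1 were 0.651 after 10 mGy, 0.611 after 100 mGy and 0.962 after 1 Gy. Those of NEAT1 were 0.796, 0.577 and 1.17. Relative to the median of all genes, NEAT1 after 10 mGy then stood at 0.979-fold, and MALAT1 at 0.800-fold. With the pooled counts scaled by median ratios, NEAT1 after 10 mGy stood at 0.996-fold of the control, MALAT1 at 0.808-fold. A lower NEAT1 after 10 mGy was therefore seen as a share of UMIs, and little of it remained under these settings. The median ratio scaling was set on all genes with a count in every library, not on the 8507 alone. Its value is thus not relative to the median of those 8507 genes. After 100 mGy NEAT1 was 0.790-fold under that scaling and 0.751-fold of the median gene without low-UMI barcodes. As plain UMIs per barcode, MALAT1 stood at 241 in the control, 104 after 10 mGy, 90.7 after 100 mGy and 163 after 1 Gy, and NEAT1 at 74.1, 39.3, 26.5 and 61.2.

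Between the irradiated libraries, the mean share of MALAT1 after 100 mGy was 1.05-fold of that after 10 mGy, and 0.939-fold without low-UMI barcodes, so the order of these 2 libraries turned with the choice of barcodes. For NEAT1 the same ratio was 0.825, and 0.724 without low-UMI barcodes. The 1 Gy library had 1.63-fold more MALAT1 and 1.74-fold more NEAT1 than that of 10 mGy, where the median gene had 1.26-fold more. Against 100 mGy the values were 1.54-fold for MALAT1, 2.11-fold for NEAT1 and 1.32-fold for the median gene.

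**Figure D2:**
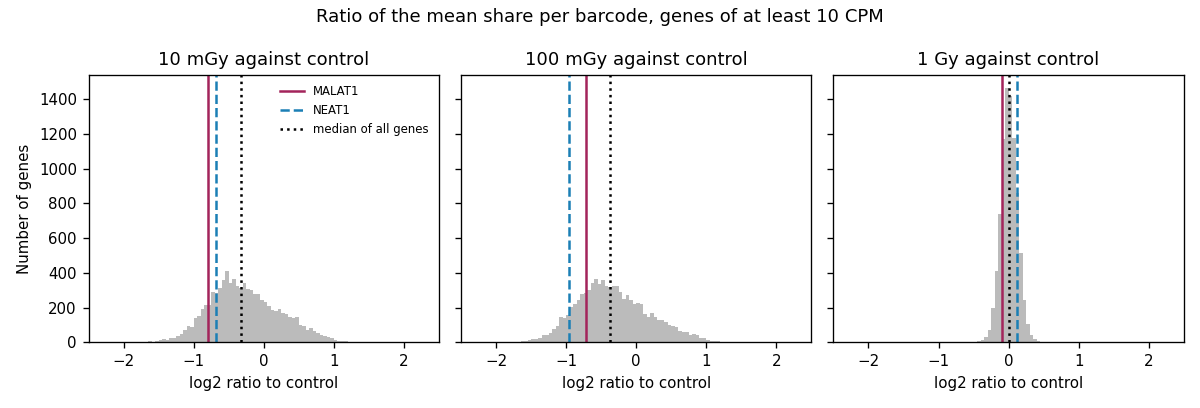
Number of genes (of 8507) by log2 ratio of the mean share per barcode to the control, for 10 mGy, 100 mGy and 1 Gy; the solid line marks MALAT1, the dashed line NEAT1 and the dotted line the median of all genes. At the low doses both members lie to the left of the median, which itself lies below 0, and after 1 Gy they lie close to it on either side.

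The first question for these RNAs is how their share goes with the total UMIs of a barcode, since a nucleus stripped of cytoplasm is known to hold a larger share of nuclear RNA. In low-UMI barcodes the shares of both were smaller. There MALAT1 took 10298 CPM in the control, 5031 CPM after 10 mGy, 6563 CPM after 100 mGy and 8813 CPM after 1 Gy, which is 0.816, 0.632, 0.884 and 0.732 times the level of the other barcodes. NEAT1 took 3386, 1310, 1224 and 2983 CPM, or 0.873, 0.429, 0.560 and 0.659 times that level. MALAT1 and NEAT1 were thus lower in the low-UMI barcodes of all 4 libraries, NEAT1 most after 10 mGy. The same barcodes were also poor in MT- RNA, with a median of 2.75% to 3.06% of UMIs against 4.59% to 5.98% in the others, and a little richer in ribosomal protein RNA, with medians of 14.9% against 13.8% in the control and 17.0% against 13.8% after 1 Gy. The part of free RNA in these values was not tested.

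Among low-UMI barcodes NEAT1 was often not seen. It had no UMI in 243 of 2174 low-UMI barcodes of the control, 1632 of 8911 after 10 mGy, 2404 of 5473 after 100 mGy and 539 of 3944 after 1 Gy, against 1, 2, 17 and 1 of the others. MALAT1 had none in 8, 11, 126 and 11 of them. These shares move with depth. With each barcode thinned to 1500 UMIs, which left out the shallower ones, NEAT1 had a UMI in 97.3% of 10179 barcodes of the control, 89.8% of 19466 after 10 mGy, 89.7% of 15374 after 100 mGy and 98.1% of 12651 after 1 Gy. MALAT1 had one in 99.9% of them in the control and 99.6% after 10 mGy. The mean count of MALAT1 in 1500 UMIs was 15.4 in low-UMI barcodes and 18.2 in the others in the control, 7.50 and 11.8 after 10 mGy, 12.4 and 11.1 after 100 mGy, and 14.1 and 17.5 after 1 Gy. At 100 mGy the order was turned in these deeper low-UMI barcodes, of which 897 remained. That of NEAT1 stayed lower in low-UMI barcodes throughout, with 1.88 against 4.56 after 10 mGy. The libraries hold 1 cell line, so no cell type that lacks these RNAs was at hand to measure the background of free RNA.

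In bins of total UMIs, the pooled share of MALAT1 in the control was 73.5 per 10000 in barcodes of 500 to 1000 UMIs, 117.0 in those of 4000 to 8000, 95.1 in those of 8000 to 12000 and 139.1 in those of 24000 to 32000. At 1 Gy it went from 75.8 to 125.2 over the same bins. At 10 mGy the lowest value, 48.1, was in barcodes of 1000 to 2000 UMIs, and the highest, 86.6, in those of 24000 to 32000. The 97 barcodes of 500 to 1000 UMIs had 68.2 there. At 100 mGy the share was 53.4 in barcodes of 500 to 1000 UMIs, 80.6 in those of 2000 to 4000, 64.1 in those of 4000 to 8000 and 83.1 in those of 16000 to 24000, and it came down to 48.9 in the 34 barcodes of at least 48000 UMIs. Barcodes of at least 48000 UMIs were also below the next lower bin after 10 mGy, with 64.1 in 136 barcodes against 74.0, and after 1 Gy, with 114.4 in 27 barcodes against 128.6, and not in the control, with 147.3 in 132 barcodes against 134.5. The deepest barcodes at the low doses had less MT- RNA as well, with a median of 3.13% after 10 mGy and 1.98% after 100 mGy, against 5.63% in the control. Doublets were kept, and their part in the deepest barcodes was not tested.

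NEAT1 was also lowest in shallow barcodes. In the control its pooled share rose from 19.5 per 10000 in barcodes of 500 to 1000 UMIs to 31.9 in those of 1000 to 2000, and from there stayed between 31.7 and 41.6. At 1 Gy it rose from 18.9 to 24.0 over the same 2 bins, reached 49.6 in barcodes of 2000 to 4000 UMIs and then stayed between 40.8 and 46.6. At 10 mGy it was 21.0 in the 97 barcodes of 500 to 1000 UMIs, so the shallowest bin was not the lowest there. It was 11.1 in barcodes of 1000 to 2000 UMIs, where 7605 barcodes lay, and 31.7 in those of 16000 to 24000. At 100 mGy it rose from 8.99 in barcodes of 500 to 1000 UMIs to 22.9 in those of 16000 to 24000.

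**Figure D3:**
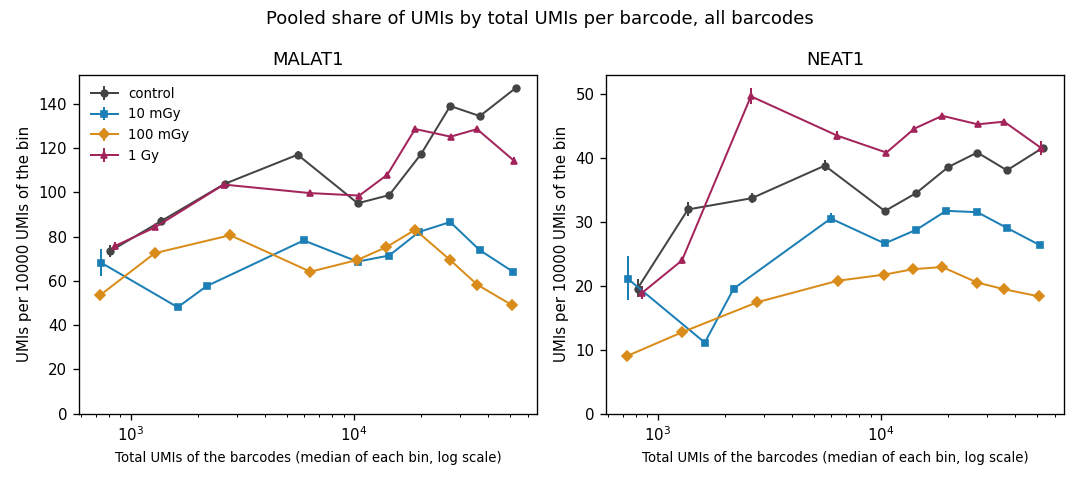
Pooled share of MALAT1 (left) and NEAT1 (right) in UMIs per 10000, in bins of total UMIs per barcode (log axis, points at the median of each bin of at least 20 barcodes), for the 4 libraries; error bars are exact 95% Poisson intervals. From barcodes of 1000 UMIs on, the 10 mGy and 100 mGy curves of both genes lie below those of the control and 1 Gy.

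Over all barcodes, Spearman's rho between the share of MALAT1 and total UMIs was 0.411 in the control, 0.430 after 10 mGy, 0.202 after 100 mGy and 0.404 after 1 Gy. For NEAT1 it was 0.279, 0.576, 0.360 and 0.430. The barcodes of a library share its depth and preparation, and total UMIs are the denominator of the share, so these values only describe the libraries. Without low-UMI barcodes rho was 0.344, 0.133, 0.0904 and 0.272 for MALAT1 and 0.140, 0.0875, 0.024 and 0.120 for NEAT1, over 8937, 12603, 14477 and 11566 barcodes. For MALAT1 in the control and after 1 Gy the relation thus stayed for the most part, and in both low-dose libraries and for NEAT1 it came closer to 0.

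The second question is whether barcodes rich in the nuclear RNAs are poor in mitochondrial RNA. Over all barcodes rho between MALAT1 and the MT- percent was 0.0709 in the control, 0.285 after 10 mGy, 0.0781 after 100 mGy and 0.166 after 1 Gy. Without low-UMI barcodes it was -0.101, 0.0147, -0.025 and -0.108, so its sign turned in 3 of the 4 libraries. For NEAT1 rho was 0.199, 0.470, 0.323 and 0.361 over all barcodes and 0.064, 0.165, 0.173 and 0.0491 without low-UMI ones. Rank by rank, NEAT1 thus went weakly with MT- RNA in each library without low-UMI barcodes. MALAT1, NEAT1 and MT- genes share 1 denominator, and with MT- UMIs taken out of it rho rose a little, to between 0.103 and 0.315 for MALAT1 and between 0.228 and 0.487 for NEAT1.

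The course of MALAT1 over MT- percent had a peak in the control, after 100 mGy and after 1 Gy, which a single rho does not show. In barcodes without the low-UMI ones, the pooled share in the control was 82.4 per 10000 below 1% MT- UMIs, 141.1 at 3 to 4% and 105.3 at 8 to 10%. At 1 Gy it was 76.5 at 1 to 2%, 138.4 at 3 to 4% and 100.0 at 8 to 10%. At 10 mGy it rose from 34.2 below 1% to 82.6 at 4 to 5% and then stayed between 75.3 and 86.9 up to 10%, with 123.1 in the 45 barcodes of 10 to 20%, so no peak was seen there. At 100 mGy it rose from 23.8 below 1% to 79.2 at 4 to 5% and came down to 61.7 at 8 to 10%. NEAT1 showed no such peak below 10% in the control, where it rose from 18.8 below 1% to 40.8 at 8 to 10%, nor after 10 mGy, where it rose from 17.9 to 38.3. At 100 mGy it rose from 10.0 to 28.1 at 7 to 8%, and after 1 Gy it stayed between 44.4 and 49.2 from 2% to 10%.

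**Figure D4:**
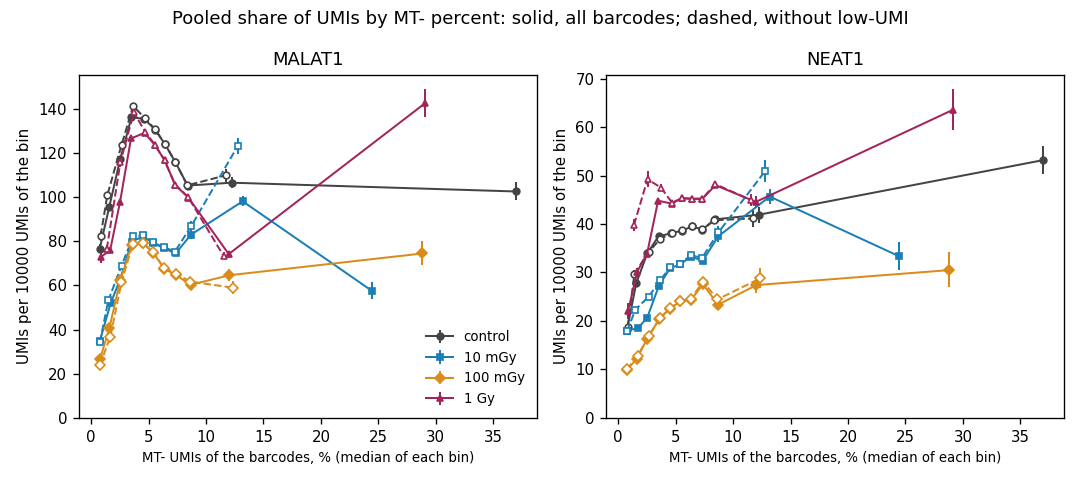
Pooled share of MALAT1 (left) and NEAT1 (right) in UMIs per 10000, in bins of MT- percent of the barcode (points at the median of each bin of at least 20 barcodes), for all barcodes (solid lines, filled marks) and without low-UMI barcodes (dashed lines, open marks); error bars are exact 95% Poisson intervals. MALAT1 is highest at 3 to 5% MT- UMIs in the control and after 1 Gy among barcodes below 10%, while NEAT1 rises with MT- percent at the left of each curve.

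Barcodes high in MALAT1 and low in MT- RNA, relative to the others of their library, were counted next. The cut for low MT- RNA lay between 3.11% and 4.62% of UMIs over the libraries. This cut is relative and low-UMI barcodes were left out, so whether the counted barcodes held nuclei stripped of cytoplasm was not tested. Among barcodes that were not low-UMI, 136 in the control lay above the 90th percentile of MALAT1 and below the 10th percentile of MT- percent, as did 106 after 10 mGy, 117 after 100 mGy and 173 after 1 Gy, of 8937, 12603, 14477 and 11566 barcodes. Those above the 90th percentile of both numbered 59, 132, 87 and 83. The corner low in MALAT1 and low in MT- RNA held 131, 334, 382 and 135 barcodes. At the low doses this corner was larger than the one high in MALAT1 and low in MT- RNA. In the control these were alike in size, and after 1 Gy the corner low in both was the smaller. The corner low in MALAT1 and high in MT- RNA held 134, 141, 217 and 209 barcodes. For NEAT1, barcodes low in both numbered 197, 353, 353 and 216, and those high in both 92, 177, 205 and 106. Those high in NEAT1 and low in MT- RNA numbered 80, 70, 66 and 158, and those low in NEAT1 and high in MT- RNA 56, 73, 134 and 80. Barcodes with at least 300 MALAT1 UMIs per 10000, a limit set after the values were seen, numbered 74 in the control, 22 after 10 mGy, 52 after 100 mGy and 70 after 1 Gy. Of these, 32, 5, 41 and 33 were low-UMI barcodes, or 43.2%, 22.7%, 78.8% and 47.1%. Among all other barcodes 19.4%, 41.4%, 27.3% and 25.3% were low-UMI. Low-UMI barcodes were poorer in MT- RNA in every library, so the medians that follow are not at like depth. The barcodes with at least 300 had a median MT- percent of 4.21%, 4.46%, 2.89% and 3.85%. In all other barcodes it was 5.75%, 4.17%, 4.29% and 5.41%. The barcodes with at least 300 were thus lower in 3 of the 4 libraries and not at 0 in any. Their median NEAT1 share was 65.8, 81.2, 15.6 and 107.0 per 10000, against 33.3, 20.4, 16.6 and 36.6 in all other barcodes.

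The difference between doses was also read at like depth and like MT- percent, with barcodes sorted into fields of total UMIs and MT- percent that held at least 20 barcodes in the control and in the irradiated library. MALAT1 was below the control in 20 of 20 fields after 10 mGy, with a median ratio of 0.622 and a range from 0.484 to 0.946. At 100 mGy it was below in 19 of 19, with a median of 0.649. At 1 Gy it was below in 9 of 19, with a median of 1.02. NEAT1 was below in 19 of 20 fields after 10 mGy, with a median of 0.813 that hides a wide range, from 0.262 to 0.440 in the 4 fields of 500 to 2000 UMIs and from 0.681 to 0.953 in the fields of at least 8000 UMIs. It was below in 19 of 19 after 100 mGy, with a median of 0.581, and in 4 of 19 after 1 Gy, with a median of 1.19. The fields are parts of the same libraries and are not replicates. The values are shares of UMIs, by which the median gene over all barcodes stood at 0.800 after 10 mGy and 0.769 after 100 mGy. Other genes were not read within the fields, so whether MALAT1 or NEAT1 fell beyond them there was not tested. At the low doses the medians over the fields lay above the ratios of pooled CPM, which were 0.620 and 0.588 for MALAT1 and 0.765 and 0.560 for NEAT1. They also lay above the ratios of the mean share, which were 0.577 and 0.608 for MALAT1 and 0.626 and 0.516 for NEAT1. The distance was largest for NEAT1 after 10 mGy, with 0.813 against 0.626.

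MALAT1 and NEAT1 varied together from barcode to barcode. Spearman's rho between their shares was 0.478 in the control, 0.507 after 10 mGy, 0.386 after 100 mGy and 0.492 after 1 Gy. Without low-UMI barcodes it was 0.451, 0.453, 0.435 and 0.443, values that lay close to each other. Within low-UMI barcodes it was 0.404 in the control and 0.220 after 1 Gy, but 0.0617 after 10 mGy and 0.109 after 100 mGy. With all barcodes of at least 1500 UMIs thinned to that depth rho was 0.312, 0.355, 0.268 and 0.326. The number of MALAT1 UMIs for each NEAT1 UMI was 3.25 in the control, 2.64 after 10 mGy, 3.42 after 100 mGy and 2.67 after 1 Gy. In low-UMI barcodes it was 3.04, 3.84, 5.36 and 2.95, and in the others 3.26, 2.61, 3.39 and 2.66. Compared with the other barcodes of the same library, low-UMI barcodes had more MALAT1 for each NEAT1 UMI in the 3 irradiated libraries, and less in the control.

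Beyond counting noise, barcodes differed in both RNAs. With the counting part taken off, the standard deviation of the MALAT1 share, without low-UMI barcodes, was 41.0% of its mean in the control, 49.2% after 10 mGy, 56.3% after 100 mGy and 41.6% after 1 Gy. For NEAT1 it was 46.3%, 49.3%, 56.7% and 48.1%. For both genes the 100 mGy library had the widest relative spread and the control the narrowest.

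By a fixed rule, the genes most like each member were taken as those with the highest mean rho over the 4 libraries, among 3508 other genes with a mean of at least 50 CPM and over barcodes that were not low-UMI. NEAT1 came first for MALAT1 and MALAT1 first for NEAT1, with a mean rho of 0.445. For MALAT1 the next were MYH9, a nonmuscle myosin heavy chain, at 0.429, DST, a large linker of the cytoskeleton, at 0.397, and TPM4, a tropomyosin, at 0.287. They were followed by NCL, which encodes nucleolin, PLEC, DYNC1H1 and HNRNPA2B1, at 0.276 to 0.249. The 95th percentile over the genes compared was 0.123. For NEAT1 the second gene was MYH9, at 0.191, and MT-ND1, a mitochondrially encoded subunit of complex I, PLOD2, PLEC, HELLS, DST and TXNRD1 followed down to 0.180, with a 95th percentile of 0.0898. The gap between the first and the second gene was wide for NEAT1 and narrow for MALAT1. In single libraries MYH9 had a higher rho with MALAT1 than NEAT1 had in the control, at 0.459 against 0.451. The same held after 1 Gy, at 0.477 against 0.443.

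At the other end the genes least like MALAT1 were RPS27A at -0.332, RPL8 at -0.313, RPS12 at -0.302, RPS23 at -0.294 and RPL11 at -0.291, all of which encode ribosomal proteins. Over 83 ribosomal protein genes the median rho was -0.213 with MALAT1 and -0.118 with NEAT1, and 1 and 2 of them were above 0. Over all barcodes, rho of MALAT1 with the summed share of ribosomal protein RNA lay between -0.523 and -0.462. The genes least like NEAT1 were others. UBE2S, an enzyme that works with the anaphase-promoting complex, had -0.288, DYNLL1, a dynein light chain, -0.287, CCNB1, the cyclin that drives entry into mitosis, -0.272, CKS2, a partner of cyclin-dependent kinases, -0.266, and ARL6IP1 -0.245. The values were alike across libraries, as for CCNB1, which had -0.289 in the control, -0.255 after 10 mGy, -0.260 after 100 mGy and -0.285 after 1 Gy. Over 28 paraspeckle protein genes the median rho was 0.0163 with NEAT1, with 17 above 0, and 0.0697 with MALAT1, with 26 above 0. Over 31 nuclear speckle protein genes it was 0.0502 with NEAT1, with 22 above 0, and 0.0621 with MALAT1, with 29 above 0. The medians over all genes were 0.0087 with NEAT1 and 0.021 with MALAT1, and these correlations are weak throughout. Counting noise, larger in genes of few UMIs, draws rho towards 0 and was not corrected for. Nor was the common denominator of the shares, of which ribosomal protein RNA was a large part.

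**Figure D5:**
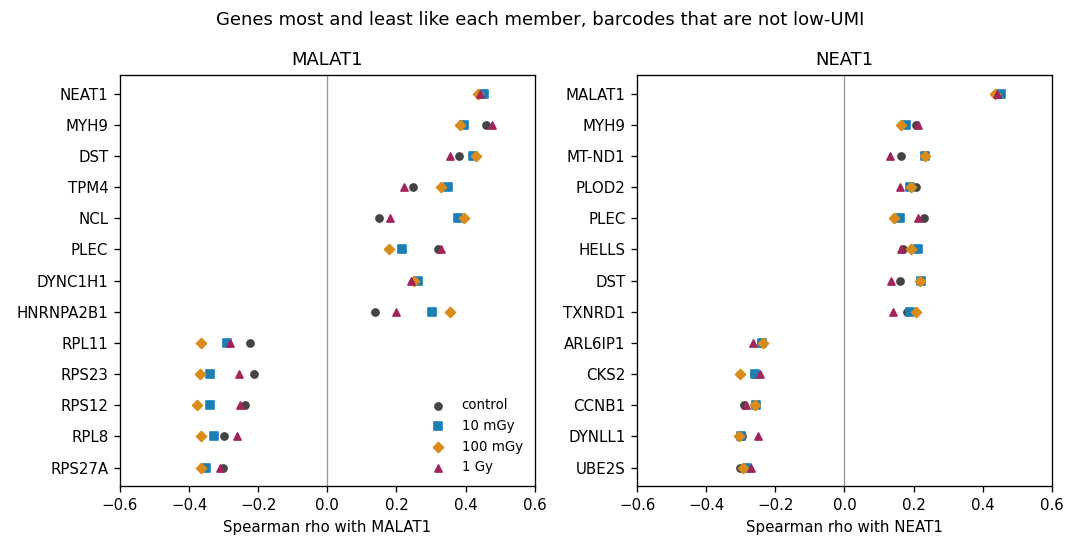
Spearman's rho over barcodes that are not low-UMI between the share of MALAT1 (left) or NEAT1 (right) and that of the 8 genes most like it and the 5 least like it, with 1 mark for each of the 4 libraries. By the mean over the 4 libraries MALAT1 and NEAT1 are each other's first gene, with marks between 0.435 and 0.453. The ribosomal protein genes at the lower left and the genes at the lower right lie below -0.2 in every library.

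The genes of the same nuclear bodies and pathways were read beside the pair, on the same scale of mean share per barcode. Of 39 paraspeckle protein genes with at least 10 CPM, 31 were over 1.2-fold lower than the control after 10 mGy and 0 higher, and 33 were lower and 1 higher after 100 mGy, against 54.4% and 58.9% of all genes lower. Their median log2 ratio was -0.51 and -0.56, where that of all genes was -0.32 and -0.38. The list was not matched to all genes for the length of exons, which is taken up further on. MATR3, whose symbol stands for more than 1 gene in the files, had the lowest ratio of the list, 0.375-fold after 10 mGy and 0.337-fold after 100 mGy for ENSG00000015479. HNRNPK, an RNA-binding protein of paraspeckles, was 0.724-fold and 0.687-fold, and HNRNPA1 was 0.773-fold and 0.795-fold. CIRBP, a cold-inducible RNA-binding protein, had the highest ratio of the list, 1.18-fold and 1.26-fold. At 1 Gy 1 of the 39 was higher and 0 lower, where 1.54% of all genes were higher and 1.28% lower.

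Of 38 nuclear speckle protein genes, 26 were lower and 1 higher after 10 mGy, and 25 and 1 after 100 mGy, where 54.4% and 58.9% of all genes were lower, with median log2 ratios of -0.39 at either dose. CCNL2, a cyclin of the speckles, had the lowest ratio, 0.402-fold after 10 mGy and 0.377-fold after 100 mGy. SRSF3, a splicing factor, was 0.917-fold and 1.02-fold, SRRM1 1.07-fold and 1.11-fold, and SRRM2, a scaffold of the speckles, 0.679-fold and 0.675-fold. Of 18 genes for the processing of the ends of MALAT1 and NEAT1 and for their modification, 7 were lower and 3 higher at each of the low doses, a smaller part lower than among all genes. The subunits of RNase P, the enzyme that cuts the ends of both RNAs, did not move one way. RPP21 and POP5 were higher, at 1.45-fold and 1.37-fold after 10 mGy, and POP1 and RPP14, named after their values were seen, were lower, at 0.639-fold and 0.617-fold. DGCR8, a partner in microRNA processing, was lower, at 0.446-fold. TARDBP, which acts on the choice of the NEAT1 form, was 0.666-fold after 10 mGy and 0.601-fold after 100 mGy. At 1 Gy none of the 38 and none of the 18 passed 1.2-fold in either direction, where 1.54% of all genes were higher and 1.28% lower.

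Of 9 other long noncoding RNAs with at least 10 CPM, 7 were lower and 1 higher at each low dose, beside 54.4% and 58.9% of all genes lower. Their median log2 ratios were -1.03 and -1.12. They were listed as nuclear, but where each lies in these cells was not measured. KCNQ1OT1, which silences an imprinted cluster, stood at 0.422-fold and 0.410-fold, LINC-PINT at 0.376-fold and 0.454-fold and TUG1 at 0.540-fold and 0.497-fold, whereas DANCR, a host of small nucleolar RNA, was 1.23-fold and 1.29-fold. Of 28 transcripts known for introns kept in the nucleus, 23 were lower and 1 higher at each low dose. Together MALAT1 and NEAT1 took 70.5% of the UMIs of the 176 noncoding genes with at least 10 CPM in the control, 63.3% after 10 mGy, 60.4% after 100 mGy and 69.7% after 1 Gy. Of the other 174, 91 were lower and 40 higher after 10 mGy, with a median log2 ratio of -0.32, and 92 were lower and 40 higher after 100 mGy, with a median of -0.31. Among all genes 54.4% and 58.9% were lower and 16.0% and 13.8% higher, with medians of -0.32 and -0.38.

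Of RNAs that lie outside the nucleus, those of ribosomal protein genes, summed, took 13.9% of all UMIs in the control, 19.9% after 10 mGy, 21.7% after 100 mGy and 13.96% after 1 Gy. Of the 13 mitochondrially encoded genes, 11 were over 1.2-fold lower after 10 mGy and 10 after 100 mGy, with median log2 ratios of -0.65 and -0.67, and 0 were higher, beside 54.4% and 58.9% of all genes lower and their medians of -0.32 and -0.38. MT-ND6 had the lowest ratio, 0.302-fold and 0.196-fold, MT-CO2, the most abundant, was 0.843-fold and 0.927-fold, and MT-ND3 was 0.918-fold and 1.05-fold. Of 15 genes with at least 10 CPM among the neighbours of MALAT1 and NEAT1 on chromosome 11, 7 were lower and 1 higher after 10 mGy and 8 and 1 after 100 mGy, close to the 54.4% and 58.9% of all genes that were lower. EHBP1L1 was 0.527-fold after 10 mGy and ZNRD2 was 1.46-fold. Their median log2 ratios, -0.22 and -0.29, lay above those of all genes.

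The ratio of a gene to the control went with the length of its exons at the low doses. Genes under 1500 bases had a median log2 ratio of 0.44 after 10 mGy and 0.42 after 100 mGy, and the 2036 genes of 8000 to 25000 bases, the class of MALAT1 and NEAT1, had -0.63 and -0.71. In that class, which for NEAT1 rests on its long form, MALAT1, at -0.79 and -0.72, and NEAT1, at -0.68 and -0.95, were not extreme. At 10 mGy 633 of the 2036 genes lay below MALAT1 and 902 below NEAT1, and after 100 mGy 993 and 468 did. At 1 Gy the class had a median of -0.02, with 471 genes below MALAT1, at -0.09, and 1865 below NEAT1, at 0.12. The lists of genes read above were set beside all genes and not beside genes of like length. Genes of 5000 to 8000 bases had median log2 ratios of -0.42 after 10 mGy and -0.48 after 100 mGy. The 39 genes of at least 25000 bases had -0.90 and -0.92. What part length or the makeup of the libraries has in these values was not tested.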

How the data were processed

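Counts were analysed from 4 libraries of BEAS-2B cells (control, 10 mGy, 100 mGy and 1 Gy), made with the Chromium Single Cell 3′ v3 kit. The authors deposited raw UMI counts per gene and barcode without normalization; the file header names Cell Ranger 7.0.1, and the submitters' processing notes name Cell Ranger, STAR and GRCh37. How genes were annotated, cells filtered, and introns and strands counted is not given in the sources used here. Every deposited barcode was kept, doublets included. UMIs were scaled to 10000 per barcode and averaged over barcodes, and ratios of these means to the control were taken for all 8507 genes with a mean pooled level of at least 10 CPM. Intervals are exact 95% Poisson intervals. Total counts ran from 211752280 to 285806026 per library. Without replicates, the spread between libraries of the same dose could not be measured. Genes named in the text are MALAT1 and NEAT1, the 3 most abundant members of each list and those with the largest rise and fall at 10 mGy and 100 mGy, the genes most and least like each member, and cell type markers; some genes under this rule are left out here. The members, the lists and the alternatives were chosen with earlier results of these data known. Gene positions, lengths and transcript sequences came from GENCODE 29 on GRCh38, matched by gene identifier, and were not used to place the counts. Ratios, and the correlation of a pair of genes as abundant as MALAT1 and NEAT1, were checked on simulated data. The correlations with total UMIs, MT- percent and other genes were not. The simulated ratios came from a fixed profile with a small part of the genes changed and no link of share to total UMIs. They therefore do not check ratios where most genes shift or where shares go with depth. The tools were Python 3.11.15, matplotlib 3.10.9, scipy 1.17.1, numpy 2.4.6 and pandas 2.3.3.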

Additional observations from a re-analysis of the deposited data

How the results depend on the processing

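No replicate could be left out, and no paired analysis was possible because each dose has 1 library. Without the barcodes of the highest totals (over 3 times the median of those that are not low-UMI), none of the 6 ratios moved beyond its counting interval. In the order MALAT1 at 10 mGy, 100 mGy and 1 Gy, then NEAT1 at the same doses, the ratios were 0.620, 0.588, 0.950, 0.765, 0.560 and 1.16 as pooled CPM, 0.430, 0.377, 0.677, 0.531, 0.358 and 0.827 as unscaled UMIs per barcode, 0.808, 0.831, 0.922, 0.996, 0.790 and 1.13 with median ratio scaling, 0.651, 0.611, 0.962, 0.796, 0.577 and 1.17 without low-UMI barcodes, and 0.673, 0.645, 0.987, 0.801, 0.584 and 1.17 in barcodes of 10000 to 30000 UMIs. NEAT1 at 1 Gy thus turned below the control as unscaled UMIs. Without MT- and ribosomal protein genes in the denominator, the low-dose ratios were 0.613 and 0.657 for MALAT1 and 0.665 and 0.561 for NEAT1. With at least 200 genes and at most 20% MT- UMIs, those of MALAT1 were 0.575, 0.606 and 0.935.

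The median rho over the 4 libraries with total UMIs, 0.407 for MALAT1 and 0.395 for NEAT1, was 0.202 and 0.104 without low-UMI barcodes and 0.293 and 0.149 in barcodes thinned to 1500 UMIs. That of MALAT1 with MT- percent, 0.122, turned to -0.063 and -0.0193. In single libraries the thinned value was -0.020 in the control, -0.0186 at 100 mGy and -0.0234 at 1 Gy, and without low-UMI barcodes -0.101, -0.025 and -0.108, but at 10 mGy it stayed above 0, at 0.203 and 0.0147. That of NEAT1 with MT- percent, 0.342, was 0.114 and 0.110, and that of MALAT1 with NEAT1, 0.485, was 0.319 after thinning. Thinning adds counting noise and leaves out the shallowest barcodes.

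Genes over 1.2-fold higher and lower than the control numbered 1359 and 4627 at 10 mGy, 1174 and 5010 at 100 mGy, and 131 and 109 at 1 Gy. With median ratio scaling they numbered 3060 and 1799, 3339 and 1797, and 46 and 169, so the split changed with the scaling. That scaling was set on all genes with a count in every library, also those under 10 CPM. It fixes the middle of those genes, so it cannot show whether all genes shifted. Pooled CPM with no other scaling, chosen after seeing the data, gave 1313 and 4507, 1190 and 5011, and 109 and 72. At 1.5-fold they were 464 and 2369, 424 and 2846, and 2 and 1. With a floor of 100 CPM they were 557 and 699, 546 and 708, and 32 and 19. With a floor of 1 CPM, 7055 and 7781 genes were lower at the low doses, and 529 higher and 459 lower at 1 Gy. Without low-UMI barcodes 72 were lower at 1 Gy.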
